A study of Zea mays with 18 samples.

Results

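The opaque2 (o2) effect in the maize inbred line M14 was measured on 6 of the 18 arrays of the series, those whose titles name the M14 comparison. The study set wild-type endosperm against o2 mutant endosperm in 3 genetic backgrounds. In M14, wild-type and opaque2 mutant endosperm, both at 14 days after pollination, were compared as poly(A) RNA in 3 independent sample pairs. Each pair was hybridised to 2 arrays with Cy5 and Cy3 exchanged, and these 2 arrays were counted as 1 replicate, so n = 3. The other backgrounds were the inbred line B46 and pools of 8 lines (A619, B14A, B45, B46, B57, B66, B73 and M14), each also with 3 replicates at the same stage. The labels do not name the o2 allele or how closely the M14 mutant is related to its wild type, and they do not say how many ears or plants stand behind a pair. The p-values therefore measure a spread between sample pairs, pooled over the 9 replicates of all 3 backgrounds.

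The product of the o2 gene is a transcription factor of the bZIP class that is active in the starchy endosperm, the storage tissue of the maize kernel. It activates genes of the 22-kDa alpha zeins, which are the prolamin storage proteins of the kernel, and it acts on genes outside storage protein synthesis, such as those of pyruvate orthophosphate dikinase. Kernels of o2 mutants are soft and opaque and have more lysine for their protein, because the zeins, which lack lysine, make up less of it.

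All values are log ratios of o2 over wild type, so a value below 0 means less signal from the o2 sample. The base of the logarithm is not stated, and folds are therefore given for base 2 and for the natural log. The direction is not settled. Because the design text puts wild type first, each deposited value was taken to be wild type over o2 whatever the dyes, and its sign was then changed. The signs of z1C1_12 and pdk1 entered into this choice and are not independent of it. The partners of the 3 M14 dye swaps correlated at -0.22, -0.22 and -0.27, although this reading gives both the same sign. The direction is therefore left unsettled. The lowest correlation of an M14 array with an array of the same dye orientation was r = -0.34. It was found between the replicate 1 arrays of M14 and of the pools with wild type on Cy5. Read as Cy5 over Cy3 instead, these 2 arrays would still share 1 sign, so this value does not bear on the choice. A ratio array gives no transcript level, so the tissue label could not be checked against marker levels. Per array, between 33 and 202 clones held 1 shared value of unstated origin, which was 3.95 before centring on the replicate 1 array with wild type on Cy5.

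No clone passed the test in M14. Among 7466 clones, 0 (0%) had a limma adjusted p under 0.05, the smallest adjusted p was 0.195, and 917 (12.3%) had an unadjusted p under 0.05. These 917 were split almost evenly, with 445 higher in o2 (5.96%) and 472 lower (6.32%). This fit takes its spread from all 3 backgrounds. When the M14 replicates were fitted alone, 448 of 7466 clones had an unadjusted p under 0.05, 196 higher and 252 lower. The smallest limma adjusted p was then 0.679. In all 3 replicates, 1334 clones (17.9%) lay above 0 and 1305 (17.5%) below. On all 6 arrays, 330 clones (4.42%) lay above 0 and 325 (4.35%) below. A mean above 0 was found for 3701 clones (49.6%), and the median over all clones was -0.0023. Both values are largely set by the centring of each array on its median. As no clone passed, the gene descriptions that follow are measured values, without a call.

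The o2 transcript itself was measured by 1 clone, with replicate values of -0.49, -0.17 and -0.45. Under the reading used, its mean was -0.37 ± 0.18 (SD, n = 3, limma adjusted p = 0.338), or 1.29-fold lower in base 2 and 1.45-fold in the natural log. With wild type on Cy5 the arrays read -1.0, -0.17 and -0.77, and with o2 on Cy5 they read 0.02, -0.16 and -0.13. The value thus lay nearly all in 1 dye orientation in replicates 1 and 3.

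The 3 replicates did not have the same spread. The median absolute deviation over clones was 0.291 in replicate 1, 0.255 in replicate 2 and 0.128 in replicate 3. Replicate 3 thus held smaller values than the other two, and replicate 3 of the pools had the same 0.128, while the 3 replicates of B46 lay between 0.236 and 0.276. Among the clones with 1 sign in all 3 M14 replicates and a mean beyond 1 log unit, 75 above and 119 below, the median size was 1.72 in replicate 1, 1.72 in replicate 2 and 0.359 in replicate 3. Whether this comes from the labelling, the scanning or the tissue was not tested.

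The 24 named genes with the smallest unadjusted p and 1 sign in all replicates, 12 on each side, show the same feature: replicate 3 was the smallest of the 3 values in 16 of them. Of the 12 genes with means below 0, 8 were below 0 on all 6 arrays, and of the 12 with means above 0, 5 were above 0 on all 6. Adjusted p in limma ran from 0.206 for Asn1 to 0.338 for o2, rcalm and ANT2. As these genes were chosen by their p in this contrast, their counts describe the choice.

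**Figure D1:**
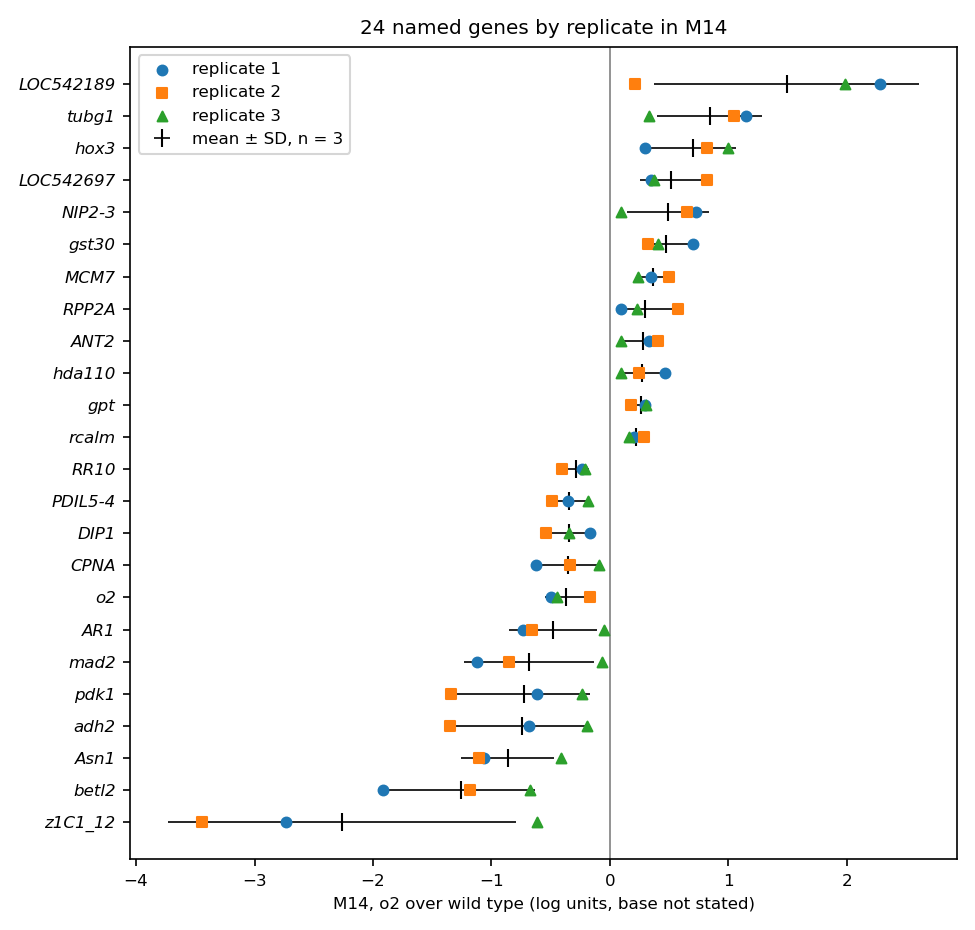
Log ratio of o2 over wild type in M14 for the 24 named genes with the smallest unadjusted p (horizontal axis, log units of unstated base), with a symbol for each of the 3 replicates and a cross and bar for the mean ± SD. The genes from RR10 down lie below 0 in every replicate, z1C1_12 lies farthest at -2.26, and the green triangles of replicate 3 are nearest to 0 in 16 of the 24.

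The farthest of the named 24 from 0 was a storage protein gene. The clone of z1C1_12, a 22-kDa alpha zein, read -2.86 and -2.61 on the 2 arrays of replicate 1, -3.35 and -3.53 on those of replicate 2, and -0.91 and -0.31 on those of replicate 3. All 6 arrays lay below 0, and the pairs of arrays differed by much less than replicate 3 differed from the others. The o2 transcript, by contrast, was not smallest in replicate 3. The mean was -2.26 ± 1.47 (SD, n = 3; limma adjusted p = 0.281). Under the reading used, the signal in o2 was thus lower by a factor of 4.79 for base 2 and of 9.59 for the natural log. With the arrays turned by their labelled dyes, the mean was -0.11 ± 0.20. Zein genes of this class form a family of near-identical copies, so 1 cDNA clone may also have bound the RNA of related members.

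Pyruvate orthophosphate dikinase, encoded by pdk1, links glycolytic intermediates and pyruvate in the endosperm. Its clone read -0.61, -1.34 and -0.24 in the 3 replicates and lay below 0 on all 6 arrays. The mean was -0.73 ± 0.56 (SD, n = 3; limma adjusted p = 0.281). The fourth gene of the group, dzs18, encodes an 18-kDa delta zein, a storage protein rich in methionine. Its replicate values were -0.19, -0.68 and -0.27, with a mean of -0.38 ± 0.26 (adjusted p = 0.776 in limma). Its 6 arrays were split completely by dye: those with wild type on Cy5 read -1.75, -2.23 and -1.16, and those with o2 on Cy5 read 1.37, 0.88 and 0.62. The mean of dzs18 is therefore a small remainder of large values of opposite sign. The group holds o2, its known targets and storage protein genes, and dzs18 is in it as a zein. Across it, 4 of 4 genes lay below 0 in all replicates, against 17.6% of 7347 features with genes averaged. Of the 4, 3 had an unadjusted p under 0.05, against 6.27% of features on that side. The median of the group was -0.55, against -0.0022 for all features, and -0.21 with the arrays turned by their labelled dyes. The pair of genes that helped to set the direction is part of the group. The group's side of 0, its sizes and its unadjusted p were thus partly fixed by that choice. Turned by the dyes, z1C1_12 averaged -0.11 and pdk1 -0.15. The shares of all features are therefore no test of the group.

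Outside this group, betl2 and Asn1 were the genes below 0 on all 6 arrays whose smallest array value lay farthest from 0. The basal endosperm transfer layer is the cell layer that takes up sugars and amino acids from the mother plant, and betl2 encodes one of its small secreted proteins. Its arrays read -1.96 and -1.87 in replicate 1, -0.95 and -1.41 in replicate 2, and -0.90 and -0.44 in replicate 3. No array of betl2 came nearer to 0 than -0.44, the largest such distance among the named genes with 1 sign on all 6 arrays. Under the reading used, the mean was -1.26 ± 0.63 (SD, n = 3, limma adjusted p = 0.247), or 2.39-fold lower for base 2 and 3.51-fold for the natural log. With the arrays turned by their labelled dyes it was -0.017 ± 0.23. In bulk endosperm, fewer transfer cells and less betl2 RNA per cell cannot be told apart.

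Other markers of that layer did not share the value of betl2. The transfer layer gene betl4 averaged 0.0075 ± 0.13, mn1, the cell wall invertase of the kernel base, -0.22 ± 0.14, and meg2 0.16 ± 0.56 (SD, n = 3 each). Over the 4 genes of this layer, 1 had an unadjusted p under 0.05, against 12.1% of all 7347 features, and the list median was -0.11. The arrays also held markers of other tissues that a dissected endosperm could carry. The 2 embryo genes averaged -0.080 ± 0.20 (ole1, an oleosin of oil bodies) and -0.13 ± 0.19 (dhn2, a dehydrin). Of the 4 genes of green tissue, lhcb5 read -1.31, 0.66 and 0.19 in the 3 replicates, and the means of the other three lay between -0.13 and 0.12. The 2 aleurone genes averaged -0.16 ± 0.062 for PLTP and 0.030 ± 0.46 for vpp1. None of these 8 genes had an unadjusted p under 0.05 in M14, against the same 12.1% of features. Counts over so few genes do not show a difference from that share.

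The gene listed as Asn1, also listed as nac4 in the gene table and so given no role here, read -1.07, -1.11 and -0.41. All 6 arrays were below 0, from -1.36 to -0.29. Its mean of -0.86 ± 0.39 (SD, n = 3) had the smallest limma adjusted p of any named gene, 0.206.

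The other genes on this side had smaller or less repeatable values. Alcohol dehydrogenase 2 (adh2), an enzyme of ethanol fermentation, averaged -0.75 ± 0.58 over 2 clones, with arrays of -1.14, -2.46 and -0.27 where o2 was on Cy5 but only -0.23, -0.25 and -0.12 where wild type was. The spindle checkpoint gene mad2 had the same asymmetry, with a mean of -1.26 over the arrays with o2 on Cy5 and -0.10 over the others. The mean of AR1 was -0.48 ± 0.37, but its 3 arrays with wild type on Cy5 all lay above 0. Outside the 24, les22, which encodes an enzyme of tetrapyrrole synthesis (uroporphyrinogen decarboxylase), averaged -0.35 in one orientation and -0.38 in the other. Its value was near 0 in replicate 3 (-0.041) and -0.57 and -0.49 in the other two. Values of smaller size were found for RR10, a response regulator of cytokinin signalling (-0.28 ± 0.11), DIP1 (-0.35 ± 0.19), the disulfide isomerase-like PDIL5-4 (-0.34 ± 0.15) and the chaperonin CPNA (-0.35 ± 0.27; SD, n = 3 each).

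**Figure D2:**
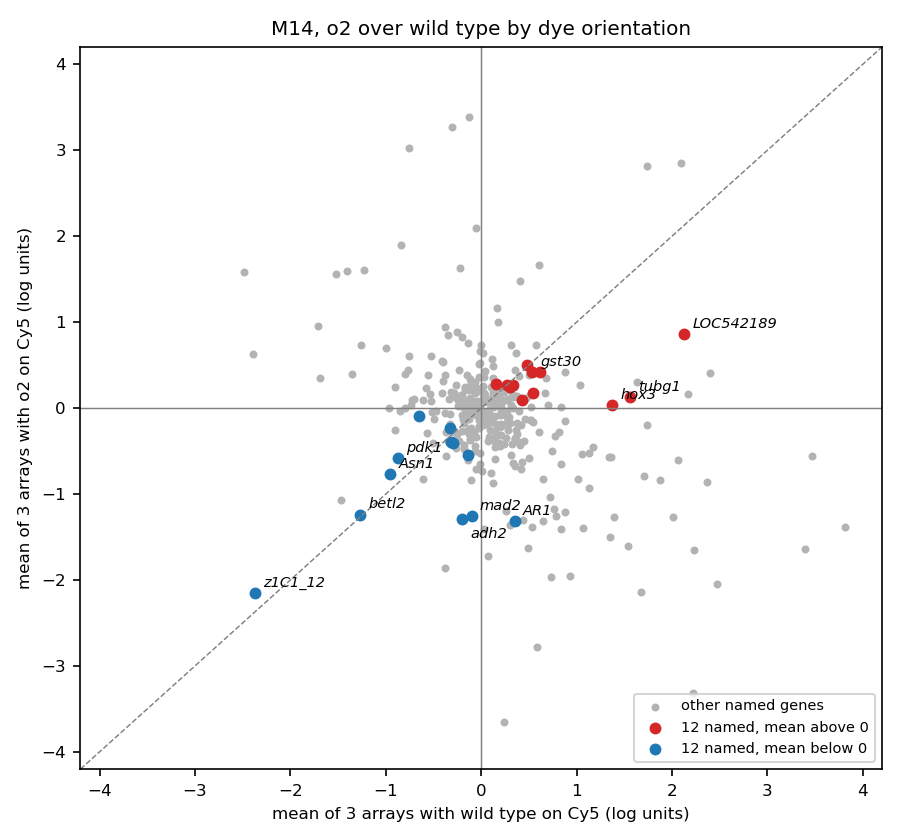
Each named gene of M14 as the mean log ratio of o2 over wild type on the 3 arrays with wild type on Cy5 (horizontal axis) and on the 3 arrays with o2 on Cy5 (vertical axis), in log units, with the 24 named genes coloured and a dashed line where both are equal. The genes z1C1_12, betl2, Asn1 and gst30 lie near the line, while adh2, mad2 and AR1 at the lower centre and tubg1 and hox3 at the right have most of their value in 1 dye orientation.

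Among the genes above 0 on all 6 arrays, LOC542697 and gst30 had the smallest array values that lay farthest from 0, at 0.35 and 0.14. A glutathione S-transferase, an enzyme that joins glutathione to toxic or oxidised compounds, is encoded by gst30. It read 0.70, 0.32 and 0.40 in the 3 replicates, with all 6 arrays between 0.14 and 0.86 and a mean of 0.47 ± 0.20 (SD, n = 3; limma adjusted p = 0.281). For LOC542697, which has no role stated here, all 6 arrays lay between 0.35 and 1.10, with a mean of 0.52 ± 0.27. These 2 genes did not share the low values of replicate 3: their replicate 3 values of 0.40 and 0.37 exceeded the smallest of their other replicates.

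The other genes of this side differed in how far their arrays and clones repeated. Gamma tubulin (tubg1), which starts microtubules, averaged 0.84 ± 0.44 over 2 clones, with 1.56 on the arrays with wild type on Cy5 and 0.12 on the others. Its 2 clones differed, at 0.24 ± 0.071 and 1.45 ± 0.89, and 2 of the 12 array values of these clones were at the array's shared value. The helicase subunit MCM7 of DNA replication averaged 0.36 ± 0.13, with 5 of 6 arrays above 0. The homeobox gene hox3 averaged 0.70 ± 0.36, and its clones also differed: one averaged -0.027 ± 0.063 and the other 1.43 ± 0.68, so the gene value stands on 1 clone. On the arrays of that gene, the highest value was 2.73 and the lowest -0.73, both in replicate 3. The value of LOC542189, 1.49 ± 1.12, rests partly on 1 array at 4.09, and 1 of its 6 array values was at the array's shared value.

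The remaining genes of this side lay between 0.22 and 0.49. They were NIP2-3, a water channel of the NOD26-like class (0.49 ± 0.34), the acidic ribosomal protein RPP2A (0.30 ± 0.25), ANT2, an exchanger of ADP and ATP in mitochondria (0.28 ± 0.16), the histone deacetylase hda110 (0.27 ± 0.19), gpt (0.26 ± 0.069) and rcalm (0.22 ± 0.062; SD, n = 3 each). RPP2A, ANT2 and rcalm lay above 0 on all 6 arrays, and NIP2-3 and gpt on 5. The arrays of hda110 disagreed in sign within every dye swap, with 3 above 0 and 3 below. Of the 3 clones of rcalm, 1 averaged 0.62 ± 0.092 (SD, n = 3), so the gene value rests largely on that clone. Over all 370 named genes, 14 (3.78%) lay above 0 on all 6 arrays and 14 (3.78%) below, against 4.42% and 4.35% of all clones.

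By gene lists, most groups of the endosperm's metabolism had medians near the -0.0022 of all 7347 features, of which 5.84% had an unadjusted p under 0.05 above 0 and 6.27% below. No list member had an adjusted p under 0.05. Of 8 genes of starch synthesis, 1 below 0 had an unadjusted p under 0.05, and the median was -0.044. This gene was bt1, the carrier of ADP-glucose into the amyloplast (-0.28 ± 0.12). A single clone of bt1 averaged -0.61 ± 0.23 (SD, n = 3), farther from 0 than the mean over its clones. That clone was called only where the 18 arrays were entered singly. The waxy starch synthase wx1 averaged 0.095 ± 0.23, and the branching enzyme ae1 averaged 0.20 ± 0.17. The 3 genes of sucrose cleavage had a median of -0.038, with sucrose synthase sh1 at -0.028 ± 0.12.

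Glycolysis and fermentation held values on both sides. Of 10 genes, 2 above 0 and 1 below had an unadjusted p under 0.05, and the list median was -0.078. Cytosolic glyceraldehyde-3-phosphate dehydrogenase was represented by gpc3, gpc4 and GPC1. In replicates 1 and 2, gpc3 read 0.37 and 0.84 and gpc4 read 0.42 and 0.89, while in replicate 3 they read -0.0082 and 0.017. For GPC1 the mean was -0.065 ± 0.16. Genes of this family can bind each other's cDNA, so their values are not independent. The alcohol dehydrogenases adh1 and adh2 averaged -0.24 ± 0.27 and -0.75 ± 0.58.

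Genes of the protein synthesis machinery had list medians above 0 and means on both sides of it. Among 12 ribosomal protein genes, 8 had a mean above 0 and 4 below. Of them, 5 were above 0 in all 3 replicates and 1 below, against 17.8% and 17.6% of features, 3 above 0 had an unadjusted p under 0.05, and the median was 0.17. Among 9 translation factor genes, 6 had a mean above 0 and 3 below, 5 were above 0 in all replicates and 1 below, 2 above 0 had an unadjusted p under 0.05, and the median was 0.19. Values within the first list ran from -0.83 for RPS10, which rests on replicate 1 at -2.73, to 0.72 for prpl35-1. The arrays of prpl35-1 were split by dye, at 3.17, 2.41 and 0.59 with wild type on Cy5 and -0.30, -1.39 and -0.13 with o2 on Cy5. In the second, elfa2 and elfa5, of the elongation factor 1-alpha family, averaged 0.26 ± 0.050 and 0.23 ± 0.077 and were among the more even values over replicates. With the arrays turned by their labelled dyes, the medians of these lists were 0.025 and 0.017.

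Folding in the endoplasmic reticulum, where zeins are assembled into protein bodies, had a median of -0.015 over 11 genes. The chaperone bip1 read -0.62, 0.059 and 0.047, and the calreticulin gene crt2 averaged 0.061 ± 0.082. The mean of PDIL2-1, 1.48 ± 2.34, came from 1 array at 8.01. In the list of heat shock and chaperonin genes, 2 of 6 had an unadjusted p under 0.05 below 0. The small heat shock protein gene hsp22 read -1.19, -1.10 and 0.14, and CPNA is given above. The list of cell cycle and cytoskeleton genes held 3 of 16 above 0 and 1 below at that p, with 8 means on each side of 0, a median of 0.034 and a range from -0.68 for mad2 to 0.94 for sgo1. In sgo1, a gene that guards chromosome cohesion, 1 of 2 clones gave 6.04 in replicate 1 and below 0 in the other two. Of 23 histone and chromatin genes, 1 above 0 had an unadjusted p under 0.05, and of 15 defence and stress genes likewise 1. The lists of amino acid metabolism (9 genes) and of water channels and proton pumps (11 genes) had medians of -0.057 and -0.011.

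**Figure D3:**
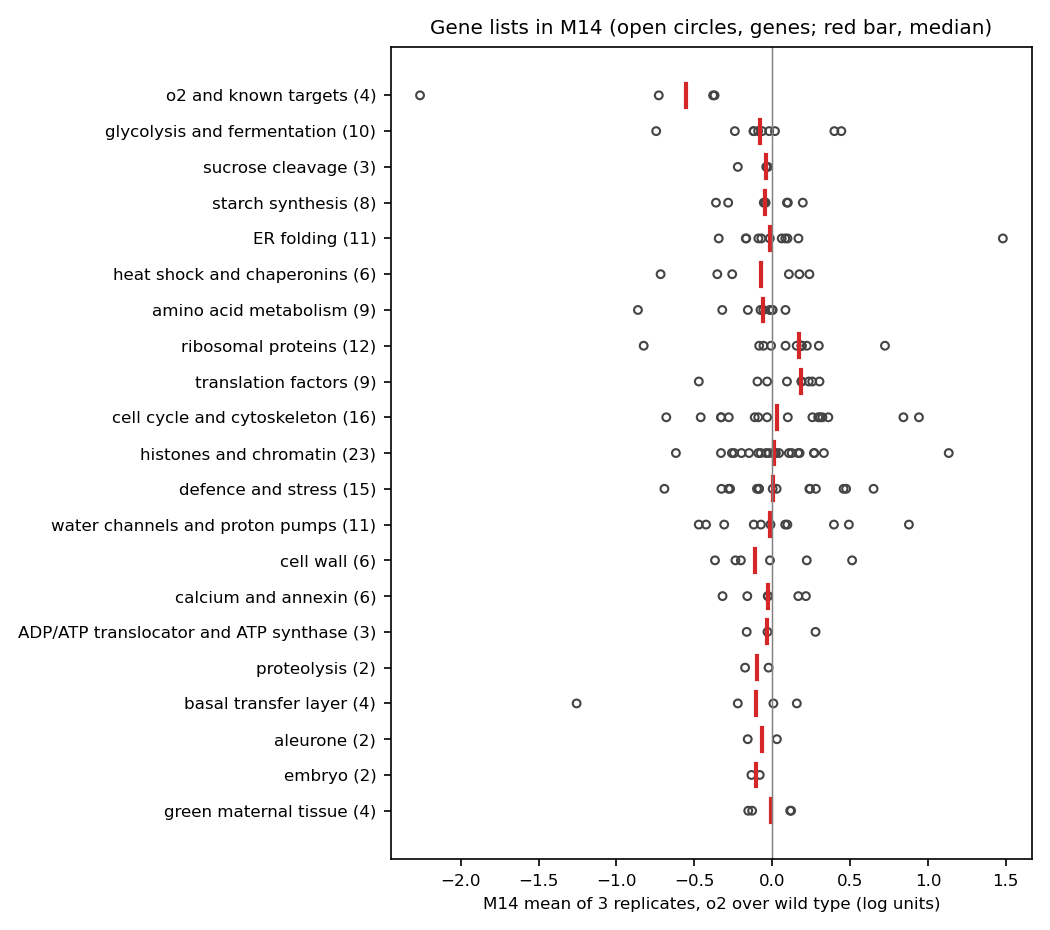
Mean log ratio of o2 over wild type in M14 (horizontal axis, log units) for each gene of the 21 lists, with open circles for genes, red bars for list medians and the number of genes in brackets. Under the reading used, the list of o2 and known targets, which holds dzs18 as a zein, has a median of -0.55 (-0.21 with arrays turned by their dyes). The medians of ribosomal proteins and translation factors are 0.17 and 0.19 (0.025 and 0.017 when turned).

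Clones of the same gene, measured on the same arrays and RNA, were also compared with each other. Of 94 genes with more than 1 clone, 42 had clones within 0.25 log units of each other, and the median difference between the highest and the lowest clone was 0.31. In 11 genes the clones were more than 1 log unit apart: AR1, aoc1, ark, gst18, hox3, pglcat6, rld1, sgo1, tif1, tua4 and tubg1. The widest was AR1, whose 3 clones averaged -1.67 ± 1.36, -0.20 ± 0.16 and 0.42 ± 0.44. Some gaps came from 1 replicate, as for the clones of sgo1 at 6.04, tua4 at 3.45 and aoc1 at 2.22, all in replicate 1. In ark, clones averaged 1.60 ± 1.30 and -0.070 ± 0.10 at the extremes. Which clone of such a gene carries its transcript could not be told from the table.

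The M14 values were then set against those of B46, the other single inbred line. For the difference M14 minus B46, 0 of 7466 clones (0%) passed in limma (smallest adjusted p 0.241), and 733 (9.82%) had an unadjusted p under 0.05, 404 of them above 0 (5.41%) and 329 below (4.41%). For M14 minus the pools, which contain M14, 0 (0%) passed (smallest adjusted p 0.831), and 376 (5.04%) had an unadjusted p under 0.05, 197 above 0 (2.64%) and 179 below (2.4%). An o2 effect that differs between M14 and the other backgrounds was thus not called for any clone. The 6 named genes with the smallest p for M14 minus B46 all had a limma adjusted p of 0.390.

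In 3 of these 6 genes the M14 value was nearer to 0 than that of B46 and on the same side. For pdk1 the replicates averaged -0.73 ± 0.56 in M14 and -1.68 ± 0.12 in B46, a difference of 0.95 ± 0.26 (SE). For les22 they averaged -0.37 ± 0.29 and -1.23 ± 0.23, a difference of 0.87 ± 0.18, and for LOC541999 -0.48 ± 0.33 and -1.54 ± 0.29, a difference of 1.06 ± 0.26. The M14 arrays of LOC541999 were split by dye. With wild type on Cy5 they read -1.71, -1.48 and -0.87, and with o2 on Cy5 0.013, 0.81 and 0.38. The M14 mean of this gene is therefore a remainder of values on both sides of 0. In the other 3 genes the means of the lines lay on opposite sides of 0. However, the mean of M14 (GPC1, frk1) or of B46 (hox3) was no farther from 0 than -0.090. Opposed effects in the 2 lines are therefore not shown. The glyceraldehyde-3-phosphate dehydrogenase gene GPC1 averaged -0.065 ± 0.16 in M14 and 0.66 ± 0.095 in B46. The fructokinase gene frk1 averaged -0.090 ± 0.056 against 0.29 ± 0.023, and hox3 0.70 ± 0.36 against -0.011 ± 0.060 (SD, n = 3 each). For M14 minus B46, betl2 differed by -0.45 ± 0.35, Asn1 by -0.016 ± 0.20 and gst30 by -0.091 ± 0.17 (SE), with limma adjusted p of 0.690, 0.985 and 0.874.

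Of 7466 clones, 273 were called lower and 68 higher in B46. The B46 means chose them, but the spread came from all 9 replicates, so the M14 arrays also entered the choice. Clones that repeated well in M14 could be called more readily, so the shares over all clones are not a matched baseline. Both lines also share the reading of the ratio. Of 273 clones called lower in B46, 261 (95.6%) had a mean below 0 in M14 and 232 (85%) were below 0 in all 3 M14 replicates, against 17.5% of all clones. On all 6 M14 arrays 140 (51.3%) were below 0, against 4.35% of all clones, and 3 were above 0 in all 3 replicates. Their median in M14 was -0.45, against -1.04 in B46, where they had been chosen for size. By M14 replicate the medians were -0.56, -0.65 and -0.14, and by dye orientation -0.55 with wild type on Cy5 and -0.35 with o2 on Cy5.

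The 68 clones called higher in B46 showed the same with smaller values. In M14, 53 (77.9%) had a mean above 0, 33 (48.5%) were above 0 in all 3 replicates, against 17.9% of all clones, and 11 (16.2%) were above 0 on all 6 arrays, against 4.42%. Their M14 median was 0.18, against 0.63 in B46, and it was 0.29 with wild type on Cy5 and 0.055 with o2 on Cy5. These shares depend on the reading of the ratio. With the arrays of both lines turned by their labelled dyes, which was added after the data had been seen, 233 of the 273 (85.3%) had an M14 mean below 0. In all 3 M14 replicates 135 (49.5%) were below 0, against 22.7% of all clones, and the median was -0.13 in M14 and -0.11 in B46. Of the 68, 50 (73.5%) had a turned M14 mean above 0 and 23 (33.8%) were above 0 in all 3 replicates, against 21.8% of all clones, with medians of 0.074 in M14 and 0.094 in B46. Once turned, 4 clones were called higher in B46 and 1 lower. If the table held Cy5 over Cy3, a dye effect shared by both lines would give the same signs, and these alternatives cannot be told apart from these values alone.

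**Figure D4:**
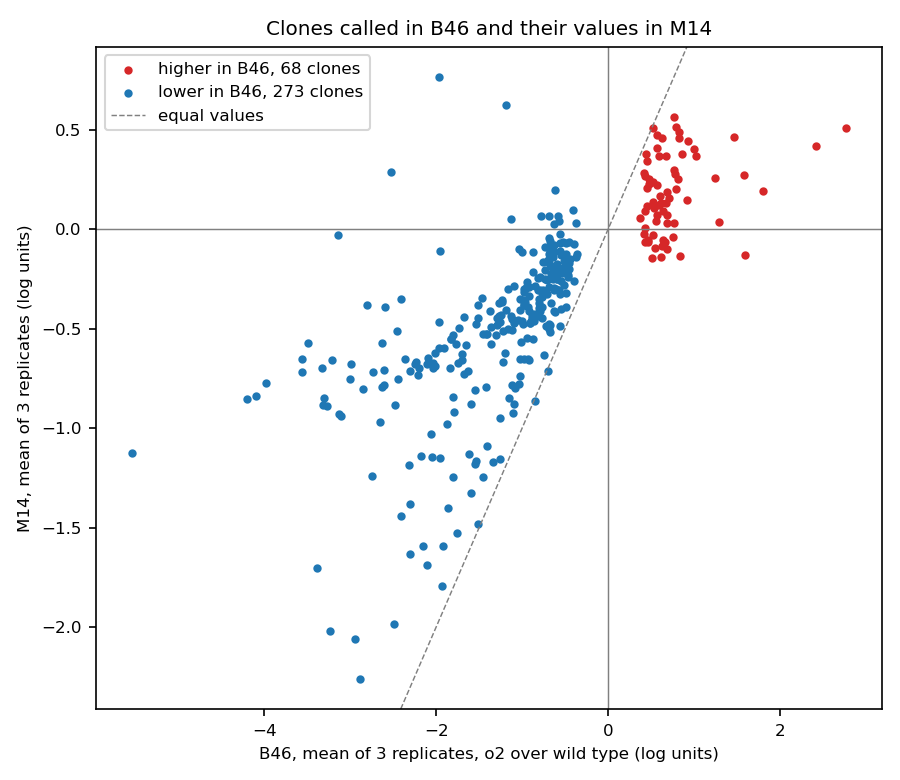
Mean log ratio of o2 over wild type in B46 (horizontal axis) and in M14 (vertical axis), in log units, for the 341 clones called in B46, with 273 lower ones in blue, 68 higher ones in red and a dashed line of equal values. Most points keep their side of 0 in M14, 261 of the 273 blue and 53 of the 68 red, and lie nearer to 0 there than in B46.

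The dye reading sets which of these values stand. Over all clones, M14 arrays of the same dye orientation correlated at r from 0.06 to 0.34, and arrays of opposite orientation at -0.40 to -0.04. The partners of the 3 dye swaps correlated at -0.22, -0.22 and -0.27, although both hold the same RNA pair. When each array was instead given the sign of its dye labels, as if the table held Cy5 over Cy3, z1C1_12 averaged -0.11 ± 0.20, pdk1 -0.15 ± 0.10, betl2 -0.017 ± 0.23, Asn1 -0.092 ± 0.21 and gst30 0.061 ± 0.19 (SD, n = 3 each). Genes whose values sat in 1 orientation did not all move alike. The mean of dzs18 became -1.33 ± 0.38, those of AR1 and mad2 turned to 0.83 ± 0.67 and 0.58 ± 0.49, and those of tubg1 and hox3 were 0.72 ± 0.34 and 0.67 ± 1.08. The o2 transcript itself kept a mean below 0 under this reading, at -0.28 ± 0.25. No clone was called in M14 under this reading either, with 938 at an unadjusted p under 0.05 and a smallest limma adjusted p of 0.142.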

How the data were processed

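Zea mays poly(A) RNA was hybridised to 2-colour cDNA arrays, and the images were read with ImaGene 4.1, per the labels. The deposited values were treated as a score: a signed log ratio. The sources used here do not state its base, normalization or direction. They ran from -9.70 to 8.72 on the M14 arrays, and their depth is unknown. All 16560 rows were read. Of these, 14932 had values, and they held 7466 clones, each on 2 identical rows. Each array was centred on its median and multiplied by -1, and the arrays of a dye swap were averaged. Clones were tested with limma 3.58.1 (lmFit, eBayes) in R 4.3.3 over all 9 replicates, with Benjamini-Hochberg adjustment and a threshold of 0.05. The fit had 6 residual and 1.51 prior degrees of freedom. For named genes, the clones of a gene were averaged first (7347 features). On simulated data built from these arrays, 200 clones shifted by 1, 2 and 4 log units were called in 55.5%, 79.5% and 97.5% of cases in M14. In the same simulations, 11, 15 and 13 unshifted clones were also called. Measured clones with 1 sign and a mean beyond 1 log unit had median sizes of 1.72, 1.72 and 0.359 by M14 replicate. Whether shifts as uneven as these would be called as often was not tested, so the rates may overstate the power for them.

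An old platform annotation named 489 clones (6.55%) with 370 genes, of which 360 matched a RefSeq gene table of Zm-B73-REFERENCE-NAM-5.0; 94 had more than 1 clone and 6977 clones are unnamed here. Named genes were o2, its known targets and storage protein genes, and the 12 genes on each side with the smallest unadjusted p among those with 1 sign in all M14 replicates. Also named were the extremes of each gene list, the 6 genes with the smallest p for M14 minus B46, and genes whose clones disagreed by over 1 log unit. The members, lists and rules were chosen with earlier results of these data known. List members were assigned by hand from symbols. Replicates of the same number in M14, B46 and the pools had deviations that correlated at -0.034 to 0.10, so the numbers were not used as pairs. Alternatives to the centring, scaling, dye reading, filters, block and replicates are given in the closing section.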

Additional observations from a re-analysis of the deposited data

How the results depend on the processing

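No clone was called in M14 under most alternatives: the values left uncentred, M14 replicates alone, arrays with o2 on Cy5 only, values turned by the dyes, trend and robust options, replicate weights, either clone filter, and clones of a gene averaged. Scaling all arrays to 1 spread called 40 clones (10 higher, 30 lower), among them clones of Asn1, betl2 and rcalm. Entering the 18 arrays singly, which counts dye-swap partners as independent, called 108 (38 higher, 70 lower) in M14 and 33 in M14 minus B46. The arrays with wild type on Cy5 alone called 1. Leaving out 1 replicate in turn called 0 to 44 clones in M14 and 0 to 24 in M14 minus B46, and 0 in M14 minus the pools. The 44 came without M14 replicate 3, the library with the smallest spread, and included clones of Asn1, AR1, fdh, hsp22 and MZPPT4; 20 of them were also among the 40 (45.5% and 50%). Without M14 replicate 2, 1 clone was called, and M14 minus B46 gave 24 without B46 replicate 2 and 2 without B46 replicate 3. Leaving out replicate 3 of both M14 and the pools, an alternative chosen after seeing the data, called 0. With the replicate number as a block, 0 clones were called in each comparison (868 at an unadjusted p under 0.05 in M14), and the same-numbered replicates were not shown to be pairs. Of 62 named genes, 43 had another sign of the M14 mean in at least 1 alternative, 32 of them when turned by the dyes. For genes named as list extremes this included PDIL2-1 at -1.78 and RPS10 at 0.90, and for the genes named by other rules the values follow. Turned by the dyes, M14 means became 0.83 for AR1, 0.041 for CPNA, 0.055 for DIP1, 0.13 for GPC1, -0.010 for NIP2-3, 0.20 for PDIL5-4, 0.54 for adh2, -0.0022 for hda110, 0.013 for les22, 0.58 for mad2 and -0.058 for rcalm. M14 minus B46 became 0.20 for GPC1, -0.56 for LOC541999 and 0.026 for frk1. With wild type on Cy5 only, AR1 was 0.35 and GPC1 0.060, and with o2 on Cy5 only, dzs18 was 0.95 and LOC541999 0.40. When clones that repeated worst between the arrays of a dye swap were left out, AR1 was 0.11 and hox3 -0.027, since fewer clones of each gene stayed, and leaving out 1 M14 replicate in turn gave GPC1 from -0.14 to 0.018. The causes of the other turns and moves were not tested. Scanner intensities were not used here, so signal over background is unknown, and 3 replicates limit the precision.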
